A study of Mus musculus with 6 samples.

Results

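Ppara, Acaa2, Pex11a and Cpt1a, 4 genes of fatty acid oxidation and peroxisomes, were followed in the hippocampus of mice with and without Nrf2. They were taken from the 50 mRNA probes of a circular RNA array by their probe names or, for Cpt1a, by the transcript accession that the probe carries. The array also held 14236 circRNA probes. Each of the 4 genes had 1 probe with 10 spots per array. The 4 were chosen with their difference between genotypes already known, so those differences are given here as a description, without a test.

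Hippocampal RNA came from 6 male mice of the ICR strain, 3 to 4 months old, with 1 mouse per array. Of these, 3 were wild type and 3 carried a knockout of Nrf2, the transcription factor that switches on antioxidant and detoxification genes. How the knockout allele was made, and whether it acts in all cells, is not given in the sources used here. Nfe2l2, the gene of Nrf2, was not analysed here, and so gives no check of the labels. All RNA had been digested with RNase R, an enzyme that degrades linear RNA and spares circles. The mRNA probes therefore read linear transcripts left after digestion or circles that hold the probed stretch, and these were not separated.

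Fatty acids are burned in mitochondria, where long chains enter through carnitine palmitoyltransferase 1 and are shortened in repeated turns of beta-oxidation, and very long chains are first shortened in peroxisomes. The nuclear receptor PPAR alpha switches on many genes of both routes when it binds fatty acids. In the brain, astrocytes carry out most of this oxidation, while neurons rely largely on glucose and lactate. In this group Ppara encodes the receptor. Cpt1a encodes the enzyme that gates entry into mitochondria, Acaa2 the thiolase of the last step of the mitochondrial cycle, and Pex11a a membrane protein that helps peroxisomes elongate and divide.

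Ppara lies on chromosome 15 from 85734910 to 85806851, in the assembly GRCm38.p6. Pex11a lies on chromosome 7 from 79735957 to 79743131 and Cpt1a on chromosome 19 from 3322326 to 3385735. Their probes are A_51_P348334 for Ppara, A_51_P125260 for Acaa2, A_51_P456957 for Pex11a and A_51_P427674 for Cpt1a. The files give no probe sequence, so the exon or UTR that each probe reads is not given here. RefSeq promoters of GRCm38.p6 were matched for 3 of the 4 genes. The 250 bases before the start site used in that table are shown for these, because the genes are read together here as a receptor and genes of its pathway. They lie at chr15:85735526-85735775 on the plus strand (Ppara), chr7:79743132-79743381 on the minus strand (Pex11a) and chr19:3323051-3323300 on the plus strand (Cpt1a). The start site of Pex11a is the end of the gene's span given above, while those of Ppara and Cpt1a lie 866 and 975 bases inside the span, downstream of its first base. Capitals mark the letters AGGTCA on either strand, the hexamer that nuclear receptors bind.
Ppara: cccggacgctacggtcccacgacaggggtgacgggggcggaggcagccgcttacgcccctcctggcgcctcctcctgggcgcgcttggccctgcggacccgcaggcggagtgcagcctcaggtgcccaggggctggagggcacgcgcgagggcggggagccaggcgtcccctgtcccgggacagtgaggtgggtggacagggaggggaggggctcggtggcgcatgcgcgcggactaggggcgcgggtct
Pex11a: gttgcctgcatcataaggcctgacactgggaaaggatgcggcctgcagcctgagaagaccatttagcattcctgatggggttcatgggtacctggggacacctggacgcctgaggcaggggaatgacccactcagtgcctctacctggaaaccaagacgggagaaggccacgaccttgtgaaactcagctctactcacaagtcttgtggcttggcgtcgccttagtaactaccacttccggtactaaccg
Cpt1a: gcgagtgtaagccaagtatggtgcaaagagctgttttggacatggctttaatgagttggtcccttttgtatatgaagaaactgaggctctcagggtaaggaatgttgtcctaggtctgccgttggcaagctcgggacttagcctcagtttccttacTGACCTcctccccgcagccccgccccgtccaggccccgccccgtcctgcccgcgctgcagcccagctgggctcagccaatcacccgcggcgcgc

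The hexamer AGGTCA, searched on both strands, was found once in these windows, in Cpt1a, as TGACCT on the gene's own strand from 94 to 89 bases before the start. Of all 32851 RefSeq promoter windows of this length, 14.02% held it. The PPAR response element, a direct repeat of that hexamer with 1 base of any kind between the copies, searched on both strands, was in none of the 3 windows and in 0.03% of all windows. The core of the antioxidant response element, TGACNNNGC, through which Nrf2 acts, on either strand, was also in none of the 3 and in 10.16% of all windows. Only matches to these letters inside these windows were counted, so variants of the elements and sites elsewhere were not searched. The Ppara window had the highest GC content of the 3, 76.4%, above that of 97.0% of all windows, with 27 CpG dinucleotides against a median of 6. GC content was 55.6% for Pex11a and 59.6% for Cpt1a, against a median of 52.4%.

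Values are given as the log2 processed signal minus the 75th percentile of the circRNA probes on the same array, so that 0 is the level of that percentile. That percentile lay between 230.9 and 481.4 intensity units over the 6 arrays, and the number of arrays limits the precision of every value. The file headers place wild type 1 to 3 and knockout 1 in scan 1 and knockouts 2 and 3 in scan 2. Genotype and scan therefore overlap, and only knockout 1 shares a scan with wild-type arrays. Of 13440 circRNA and mRNA probes tested with limma, 20 passed an adjusted p of 0.05, or 0.149%, and 0 of the 4 genes were among them (3672 probes had an unadjusted p under 0.05). Of 40 cell type markers listed, 3 had a probe, namely Chgb of neurons, Mbp of oligodendrocytes and Apoe of astrocytes, and all 3 were well above background on all 6 arrays. Markers of hippocampal excitatory neurons, microglia, endothelium, choroid plexus, red cells and liver were not analysed here.

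All 4 genes had lower mean values in the knockout with this scaling, by 2.54-fold for Ppara, 1.92-fold for Acaa2 (dim, with 2 of 3 knockout arrays well above background), 1.497-fold for Pex11a and 1.30-fold for Cpt1a, while scaling on the other mRNA probes turned the sign of Pex11a and Cpt1a. For Ppara, Acaa2 and Pex11a every knockout array lay below every wild-type array. That pattern held for 17.3% of all 13380 tested probes measured on 6 arrays, and for 17 of the 40 other tested mRNA probes, or 42.5%. Since the genes were chosen on this contrast, nothing is read from the 3 of 4. In bulk tissue, fewer cells of a type and less RNA per cell cannot be told apart. The mRNA probes read RNA left after RNase R digestion, and the part of that digestion in these values was not tested. Genotype and scan overlap as well.

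Ppara, the receptor, was at -2.34, -2.46 and -2.07 on wild-type arrays 1 to 3 and at -3.81, -4.14 and -2.94 on knockout arrays 1 to 3. The genotypes did not overlap, with a gap of 0.48 between the lowest wild-type and the highest knockout array, and knockout 3 stood nearest to the wild type. Wild-type arrays averaged -2.29 ± 0.20 and knockout arrays -3.63 ± 0.62 (SD, n = 3 per genotype), a log2 difference of -1.34 (SE 0.309). Measured from the wild-type mean, knockouts 1 to 3 differed by -1.53, -1.85 and -0.65 on the log2 scale. The difference within scan 1, which rests on knockout 1, was thus larger than that over all arrays. The spread among knockout mice was wider than the spread among the 10 spots of an array, whose SD was 0.037 to 0.165. None of the 30 knockout spots reached the lowest of the 30 wild-type spots, and all 60 spots were well above background. The 10 spots of an array repeat the measure of 1 mouse, so this count and the spot counts below add no replicates.

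Acaa2, the thiolase of mitochondrial beta-oxidation, lies on chromosome 18 from 74779212 to 74806207 (GRCm38.p6). It was at -4.61, -4.53 and -3.99 in wild type and at -5.05, -5.38 and -5.52 in knockout. The genotypes did not overlap, with a gap of 0.45. The means were -4.38 ± 0.34 and -5.32 ± 0.24 (SD, n = 3 each), a log2 difference of -0.94 (SE 0.225). The smallest of the knockout differences from the wild-type mean was that of knockout 1, the array that shares the wild-type scan, at -0.68, against -0.998 for knockout 2 and -1.14 for knockout 3. The probe was dim. On knockout 1 only 1 of its 10 spots was well above background, against 10 and 9 on knockouts 2 and 3 and 10 on each wild-type array. Among spots free of outlier flags, 2 of 27 knockout spots lay above the lowest of 29 wild-type spots.

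Pex11a, the peroxisomal membrane protein, was at 0.55, 0.37 and 0.37 in wild type and at -0.29, -0.11 and -0.05 in knockout. The arrays of each genotype lay close together and did not overlap with the other, with a gap of 0.43. The means were 0.43 ± 0.10 and -0.15 ± 0.13 (SD, n = 3 each), a log2 difference of -0.58 (SE 0.161). Its difference varied least of the 4 among knockout mice, at -0.73, -0.54 and -0.48 for knockouts 1 to 3. The largest of these was the within-scan value of knockout 1. None of its 29 knockout spots, which are repeats on 3 arrays, reached the lowest of its 29 wild-type spots. The SD between spots was 0.023 to 0.130.

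Cpt1a, the gate of mitochondrial entry, was at -4.49, -4.17 and -4.75 in wild type and at -4.64, -5.07 and -4.85 in knockout. The genotypes overlapped, since knockout 1 lay above wild type 3. The means were -4.47 ± 0.29 and -4.85 ± 0.21 (SD, n = 3 each), and the log2 difference of -0.38 (SE 0.210) was smaller than the range of 0.58 within wild type. Knockouts 1 to 3 differed from the wild-type mean by -0.17, -0.60 and -0.38, and the first of these is the value within scan 1. The genotypes also mixed at the level of spots, where 20 of 27 knockout spots lay above the lowest of 30 wild-type spots. Without wild type 2, the highest array, the difference was -0.23. Without wild type 3, the lowest wild-type array, it was -0.52. The genotypes then could not overlap, since no other wild-type array lay below a knockout array.

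**Figure D1:**
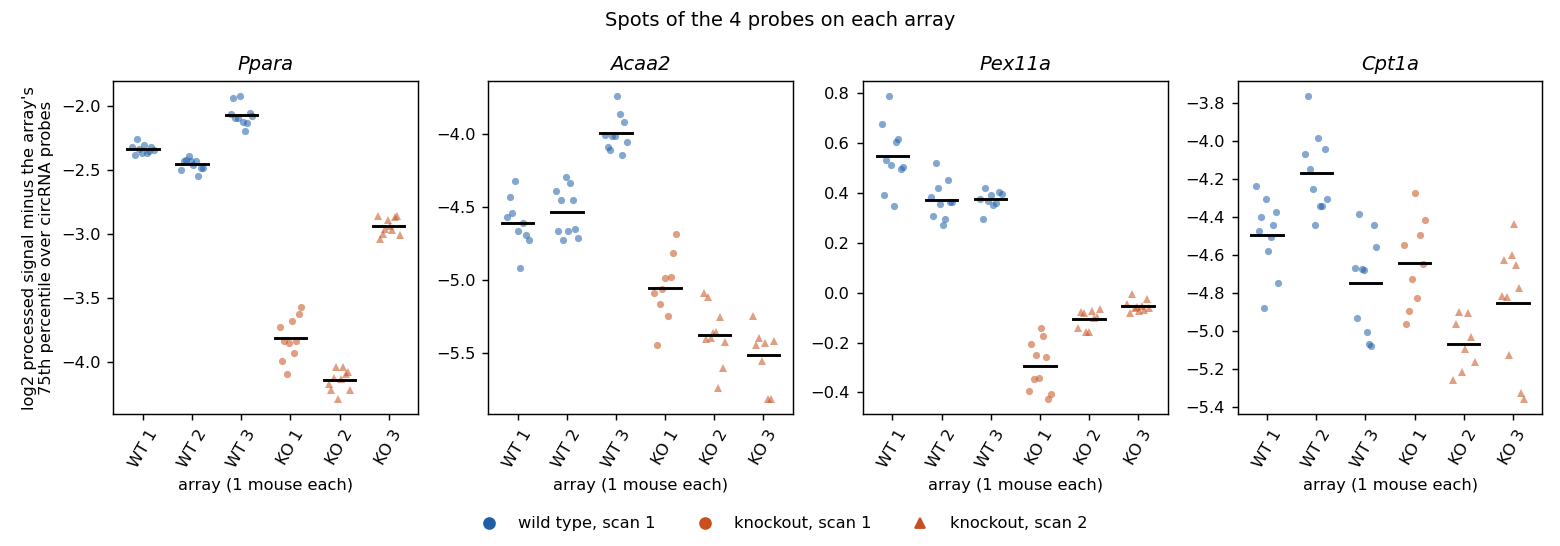
Each point is 1 spot free of outlier flags and each black bar the mean of an array, as log2 processed signal minus the array's 75th percentile over circRNA probes, with 1 panel per gene and its own vertical range. The wild-type arrays (blue) and the knockout arrays (orange, circles for scan 1 and triangles for scan 2) are apart for Ppara, Acaa2 and Pex11a and overlap for Cpt1a, with Ppara on knockout 3 nearest to the wild type.

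Before any scaling between arrays, the processed signal separated the genotypes for Ppara and Acaa2, while those of Pex11a and Cpt1a overlapped. Ppara had 79.6, 68.1 and 55.1 intensity units in wild type and 27.3, 27.3 and 43.2 in knockout, without overlap. Acaa2 had 16.6, 16.2 and 14.6 in wild type and 11.6, 11.7 and 7.29 in knockout, again without overlap. Before background correction its raw signal did overlap, since knockout 1 at 43.0 lay inside the wild-type range of 42.0 to 51.2. Pex11a had 588.9, 484.5 and 299.3 in wild type and 312.1, 447.6 and 319.3 in knockout, so the unscaled genotypes overlapped. Its separation appeared once each array was set against its own circRNA signal, which was lowest on wild type 3 and highest on knockout 2. Cpt1a had 17.98, 20.98 and 8.71 in wild type and 15.5, 14.4 and 11.7 in knockout, with wild type 3 the lowest of all 6 arrays.

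**Figure D2:**
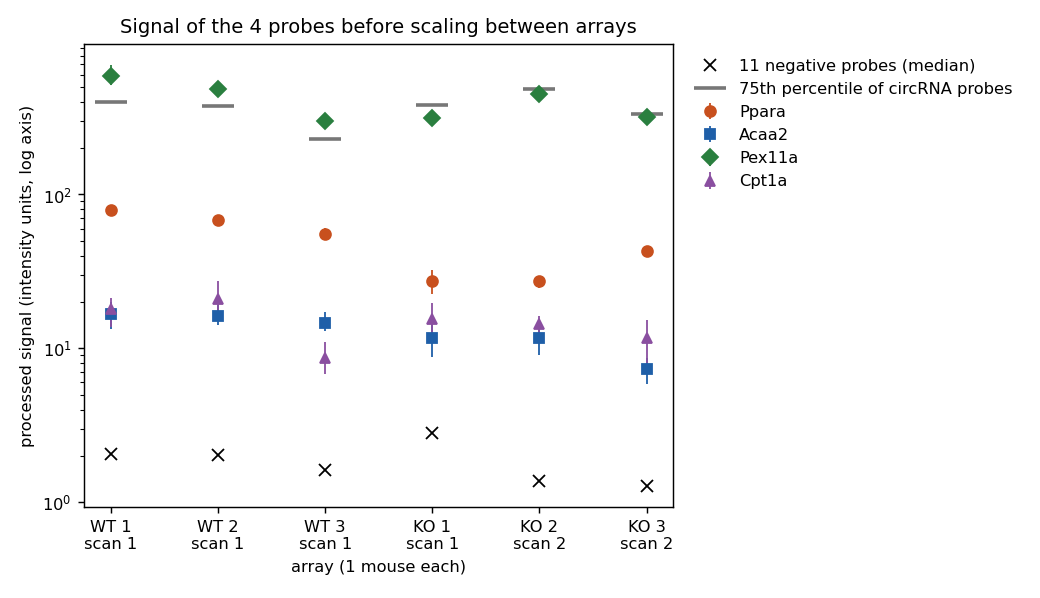
Mean processed signal of each gene's spots per array in intensity units on a log axis, with bars from the lowest to the highest spot, the median of 11 negative probes (crosses) and the 75th percentile of the circRNA probes (grey dashes). Ppara and Acaa2 are lower on every knockout array before scaling, while the Pex11a and Cpt1a arrays of the genotypes overlap.

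Both dim probes, Acaa2 and Cpt1a, lay 2.02 to 3.38 log2 units above the negative probes. The array names 15 probes as negatives, and 11 of these never rose well above background. Their median processed signal was 2.04, 2.03 and 1.62 units in wild type and 2.83, 1.38 and 1.27 in knockout, highest on knockout 1. Their raw spot signal, before background correction, was 27.9 to 32.6 units on the 4 arrays of scan 1 and 21.3 and 20.9 on knockouts 2 and 3. The raw signal of Acaa2 was 51.2, 43.5 and 42.0 in wild type, 43.0 on knockout 1 and 33.0 and 27.4 on knockouts 2 and 3. Scan 2 holds only knockout arrays, so scan and genotype cannot be told apart in these raw values. The part of this floor in the lower values of the dim probes was not tested. Ppara lay 3.26 to 5.28 log2 units above the negative probes, nearest on knockout 1, and Pex11a lay 6.78 to 8.34 above them. Measured from the negative probes of each array, the log2 difference was -0.93 for Ppara and -0.52 for Acaa2. It was -0.17 for Pex11a and 0.03 for Cpt1a, and the genotypes overlapped for each of the genes.

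The local background around the 40 spots of the 4 genes, a measure that did not enter the choice of genes, differed between genotypes by less than the spread of the arrays. It was 22.7, 19.3 and 19.1 intensity units in wild type and 18.5, 21.3 and 20.6 in knockout. On the log2 scale the means were 4.34 ± 0.14 and 4.33 ± 0.11 (SD, n = 3 each), a difference of -0.01 (p = 1 in an exact permutation test, two-sided, which with 3 arrays per genotype cannot go below 0.1). Its sign turned when wild type 1 or knockout 1 was left out.

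The other mRNA probes were lower in the knockout too. Of 40 other tested mRNA probes, 35 had a lower mean in the knockout, or 87.5%, against 46.5% of all 13440 tested probes. Their median log2 difference was -0.57, that of the 4 genes -0.76 and that of the tested circRNA probes 0.04. Of these 40 probes, 6 had a more negative difference than Ppara, 11 than Acaa2, 20 than Pex11a and 25 than Cpt1a. Of the circRNA probes, 3.67% had a more negative difference than Ppara, 6.81% than Acaa2, 13.6% than Pex11a and 21.2% than Cpt1a. The 4 genes were thus spread along the mRNA probes, with Pex11a near their middle and Cpt1a in the less negative part.

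**Figure D3:**
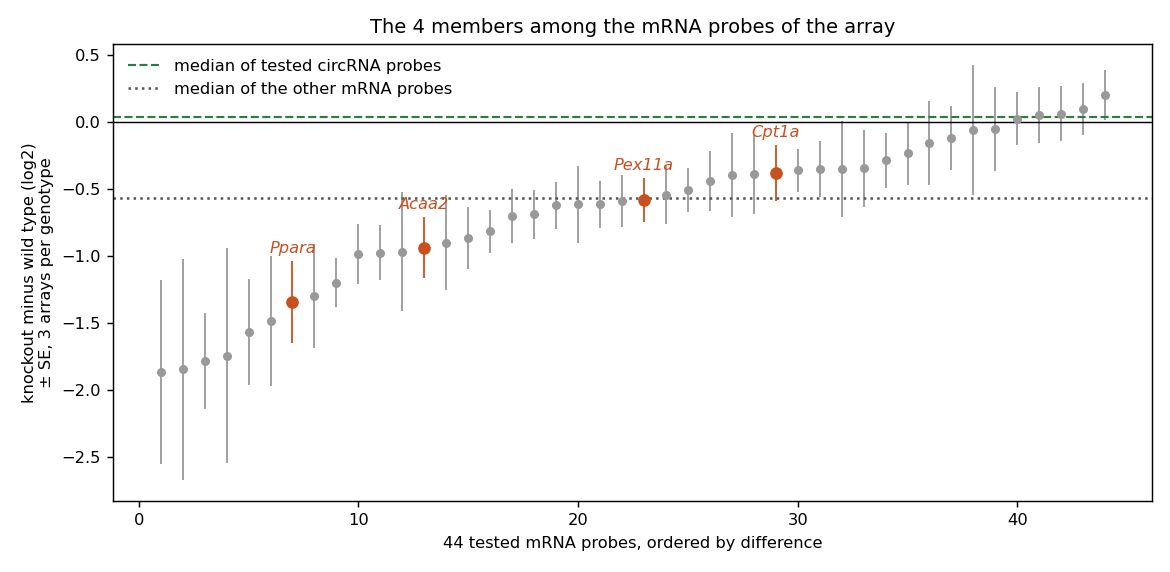
Log2 difference of knockout minus wild type with its SE (3 arrays per genotype) for the 44 tested mRNA probes, ordered from the most negative, with the 4 genes in orange and the medians of the circRNA probes (dashed) and of the other mRNA probes (dotted). The 4 genes lie below 0 at ranks spread along the series, and Pex11a and Cpt1a lie above 0 when arrays are scaled on the other mRNA probes.

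Scaling on the other mRNA probes instead of the circRNA probes raised the differences of all 4 genes by the same 0.66. The genes thus stayed as far apart from each other as before, while the place of 0 among them changed. The mean of the other 46 mRNA probes was -2.82, -2.76 and -2.80 in wild type and -3.13, -3.66 and -3.58 in knockout, a difference of -0.66. Relative to that mean, Ppara was at 0.48, 0.30 and 0.73 in wild type and at -0.69, -0.48 and 0.64 in knockout. Knockout 3 then lay within the wild-type range, and the log2 difference was -0.68 (SE 0.347). Acaa2 kept a lower mean in the knockout, with a difference of -0.27 (SE 0.262), about 1 SE from 0, and overlapping arrays. Pex11a turned to 0.08 (SE 0.273) and Cpt1a to 0.28 (SE 0.251), both higher in the knockout and both within about 1 SE of 0. None of the 4 genes then separated the genotypes. Set against the 46 other mRNA probes, therefore, only Ppara and Acaa2 had a lower mean in the knockout, and that of Acaa2 was lower by about 1 SE.

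Ratios between the genes on the same array are free of a scaling that subtracts 1 value per array, though not of the treatment of the background. Ppara differed more than Pex11a, with a log2 ratio that differed by -0.76 in the knockout (SD 0.24 in wild type and 0.58 in knockout) and no overlap between genotypes. That ratio differed by -0.46 with the raw median signal, by -0.21 with normexp and by -0.09 with normexp and quantile normalization, and the genotypes then overlapped. With the processed signal the difference was -0.96 for the ratio of Ppara to Cpt1a and -0.41 for that of Ppara to Acaa2, and in both the genotypes overlapped. It was -0.55 for Acaa2 to Cpt1a, -0.36 for Acaa2 to Pex11a and -0.20 for Pex11a to Cpt1a. The genotypes overlapped in these 3 ratios as well, with an SD between mice of 0.18 to 0.59. Separation was thus seen in 1 of the 6 ratios, and with the processed signal. How often ratios between other probes separate the genotypes was not tested, so this count has no share to be set against. The 6 ratios share genes and are not independent. They are also built from the values on which the genes were chosen, so nothing is read from the 1 of 6.

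The differences of Ppara and Acaa2 were smaller under other treatments of the spot signal. With the raw median spot signal and no background correction, the log2 difference was -0.98 for Ppara and -0.63 for Acaa2, against -1.34 and -0.94 with the processed signal. That of Pex11a was -0.53 and that of Cpt1a -0.48. The normexp alternative started from the same raw signal and added an offset of 50 intensity units, which by construction shrinks log2 differences of probes with a signal of that size or less. It gave -0.70 for Ppara, -0.34 for Acaa2, -0.49 for Pex11a and -0.27 for Cpt1a with the 75th percentile scaling. With quantile normalization after normexp the differences were -0.57 for Ppara, -0.12 for Acaa2, -0.48 for Pex11a and -0.04 for Cpt1a. The parts of the background correction, the offset and the start from median signals were not separated.

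**Figure D4:**
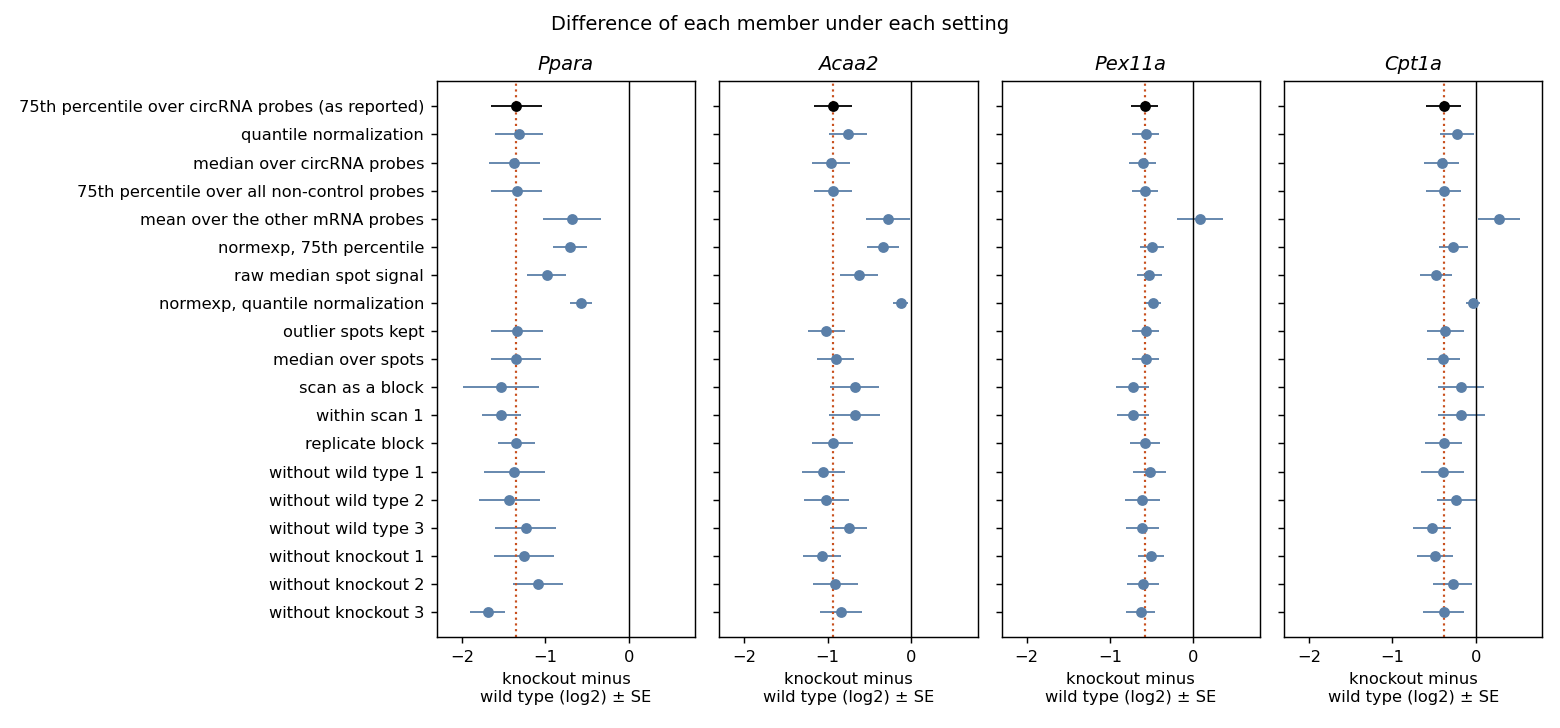
Log2 difference of knockout minus wild type with its SE for each gene under the reported setting (black, dotted line) and 18 alternatives (blue). Ppara and Acaa2 stay below 0 in all of them, while Pex11a and Cpt1a lie above 0 with scaling on the other mRNA probes.

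The probes whose profile over the 6 arrays was nearest to each gene were not the other 3 genes. Likeness was measured as the root mean square difference of log2 values after each probe's own mean was removed, over 37 other mRNA probes with a symbol. Nearest to Ppara were Gpi1, an enzyme of glycolysis, at 0.370, E2f1, a cell cycle transcription factor, at 0.385 and Il2, a T cell cytokine, at 0.388. Among the 3 nearest to Acaa2 were E2f1 at 0.231 and Anxa8, a calcium-dependent phospholipid-binding protein, at 0.233. Nearest to Pex11a were Lhx1, a LIM homeodomain factor, at 0.0826, Anxa8 at 0.162 and Gamt, an enzyme of creatine synthesis, at 0.195. Nearest to Cpt1a were Mzb1, a chaperone of B cells, at 0.151, Lhfp at 0.171 and Spats1 at 0.189. Among the 4 genes the nearest pair was Pex11a and Cpt1a at 0.277, and the most distant was Ppara and Cpt1a at 0.656. All these profiles share the same 6 arrays and the same scans.

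Of 110 genes listed for fatty acid oxidation, peroxisomes, PPAR alpha targets and lipid handling, 5 had an mRNA probe, the 4 genes and Apoe. Apoe, which carries lipids between brain cells, was at 2.19, 2.11 and 2.65 in wild type and at 2.40, 2.41 and 2.42 in knockout. The knockout arrays lay inside the wild-type range, and the log2 difference was 0.10 (SE 0.191, limma adjusted p = 0.771 over all 13440 probes). The 1 other listed gene with a probe thus did not pass the test in either direction. Apoe also serves as the astrocyte marker here. Chgb, the neuronal marker, was at -0.98, -0.93 and -0.63 in wild type and at -0.90, -1.46 and -2.02 in knockout. Its log2 difference was -0.615 (SE 0.286, limma adjusted p = 0.209), more negative than those of Pex11a and Cpt1a. Mbp, the oligodendrocyte marker, was at 0.32, -0.18 and 0.16 in wild type and at 0.24, 0.12 and -1.10 in knockout. The log2 difference of Mbp was -0.35 (SE 0.358, limma adjusted p = 0.553). Chgb and Mbp were both lowest on knockout 3. Among the 4 genes, Acaa2 was also lowest on that array, while Ppara and Pex11a were nearest to the wild type there. Cpt1a on knockout 3 lay between its values on the other knockout arrays. The part of cell makeup in the values of the 4 genes was not tested.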

How the data were processed

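The members and the gene lists were chosen with earlier results of these data known. Total RNA was digested with RNase R, labelled with Cy3 by random priming and hybridised to 1-colour arrays, per the labels' protocols. The deposited files hold an intensity per spot from Agilent Feature Extraction (version 11.0.1.1, protocol GE1_1100_Jul11), corrected for background and spatial trend but not scaled between arrays, per the file headers. The submitters' processing notes also name limma, without its steps. The series table of processed values lists none of the 4 probes and was not used.

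Outlier spots were left out, no spot of the 4 probes was saturated, and the log2 signals of a probe's spots were averaged, after which the 75th percentile over circRNA probes was subtracted. Probes were tested where well above background on at least 3 arrays (for 10 spots, at least 50% of them). Differences and standard errors came from limma 3.58.1 in R 4.3.3 (lmFit and eBayes, with files read by the data.table package, version 1.17.8), fitted over all tested probes with genotype as the only term and Benjamini-Hochberg adjustment, and the fit was tested on simulated data. Of the 50 mRNA probes 44 matched a RefSeq symbol (GRCm38.p6), and 38 of the 44 tested had one. The named genes are the 4 members, listed pathway genes and markers with a probe, and the 3 nearest probes to each member, of which 1 is not reported here. The labels number the mice but do not say that equal numbers were paired. Figures used matplotlib 3.10.9 in Python 3.11.15.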

Additional observations from a re-analysis of the deposited data

How the results depend on the processing

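The number of arrays and, for Acaa2 and Cpt1a, signal close to the negative probes limit these values. Ppara and Acaa2 were lower in the knockout under all 18 alternatives, with log2 differences of -1.69 to -0.57 and -1.07 to -0.12, and Pex11a and Cpt1a under all but 1. These alternatives are not independent. A block for the replicate number cannot change a difference, and the scan as a block gives the same difference as scan 1 alone. Scaling on the other mRNA probes gave -0.68 for Ppara, -0.27 for Acaa2, 0.081 for Pex11a and 0.28 for Cpt1a, and it left 0 genes without overlap between genotypes, against 3. That scaling raised the median of all probes by 0.66. The cause of the shift was not tested. Normexp with the 75th percentile moved Ppara to -0.70 and Acaa2 to -0.34, and normexp with quantile normalization moved Ppara to -0.57, Acaa2 to -0.12 and Cpt1a to -0.038. The raw median spot signal moved Acaa2 to -0.63. With the scan as a block and within scan 1, where knockout 1 is the only knockout, the values were -1.53 for Ppara, -0.68 for Acaa2, -0.73 for Pex11a and -0.17 for Cpt1a. Leaving out 1 array gave -1.69 to -1.09 for Ppara, -1.07 to -0.75 for Acaa2, -0.63 to -0.51 for Pex11a, -0.52 to -0.23 for Cpt1a, and 3 to 4 genes without overlap. The 4 was reached without wild type 3 or without knockout 1, the arrays on which Cpt1a overlapped, so it followed from the removal. That count was chosen after seeing the data.

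Over all probes, the 20 calls of limma became 4 with quantile normalization, 423 with normexp and 0 with normexp and quantile normalization (3696 at an unadjusted p under 0.05), 6229 with scaling on the other mRNA probes and 10 with the raw signal. They became 0 with outlier spots kept or without the filter on dim probes (3696 and 3728), and 13 for probes well above background on all arrays. With the scan as a block or within scan 1 there were 0 calls (1200 and 1226 at an unadjusted p under 0.05, against 3672). Leaving out 1 array gave 0 to 2021 calls, the highest without knockout 1. With the replicate number as a block there were 429 calls. Each number holds 1 array per genotype, so this block cannot change the differences of the 4 genes. Correlations of same-numbered arrays were 0.19, -0.04 and 0.21, so the numbers were not treated as pairs.

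The difference in local background, -0.01, was 0.0078 with the median over spots, -0.13 within scan 1 and -0.057 to 0.067 when 1 array was left out.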
